A study of Mus musculus with 53 samples.

Results

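The mitochondrial ribosomal protein genes are the nuclear genes for the proteins of the mitochondrial ribosome. They were taken here as every gene whose name begins with Mrpl or Mrps followed by a digit, a rule that uses names and no measured value. It found 76 of the 11647 genes in the table of bulk RNA levels, and the same 76 among the 23235 genes of the single-cell table. By the current naming of the ribosome's proteins 49 belong to the large subunit, among them Mrps18a and Mrps30, and 26 to the small subunit, while Mrps36 was kept apart. A counterpart in bacterial ribosomes was assigned to 46 of them and none to 29. Mrps18b, though a relative of bacterial S18, was counted among the 29, as was Mrps18a, and Mrps18c among the 46.

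The mitochondrial ribosome translates the few messages of the mitochondrial genome, all of which encode subunits of the respiratory chain and of the ATP synthase. Its RNAs are made inside the organelle, but all its proteins are made in the cytosol and imported, so the nucleus has to supply them in step with one another. Embryonic stem cells rely strongly on glycolysis and carry mitochondria that mature as the cells differentiate. Tbx3, a member of the T-box family of transcription factors, belongs to the self-renewal network of mouse embryonic stem cells.

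All cells were of the mouse embryonic stem cell line R1, grown in serum and LIF with no feeder layer. Total RNA of 5 cultures was sequenced in bulk, 1 library per group. The groups were Tbx3 +/+ (wild type), Tbx3 +/N (1 allele lost, given as Tbx3 +/-), Tbx3 N/N (null, given as Tbx3 -/-), shLuc (wild-type cells with a hairpin against luciferase, a gene these cells lack) and shTbx3 (a hairpin against Tbx3). Single-cell values came from 45 cells and 1 pool of wild-type R1 cells sorted as SSEA1+ and DAPI-. Tbx3 binding sites were mapped in Tbx3 N/N cells that carry the biotin ligase BirA and a biotin-tagged Tbx3 (bfTbx3), pulled down on streptavidin beads; cells with BirA alone were the control. The tagged protein was thus put back into null cells, and how far its level resembles that of the natural protein was not analysed here.

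Because each bulk group is 1 library, no difference below has a replicate check or a p-value. Values are FPKM, read fragments scaled for transcript length and library size, and read numbers per library are not known from the files. Tbx3 itself was at 44.4 FPKM in +/+, 22.5 in +/N, 15.1 in N/N, 13.8 in shLuc and 5.09 in shTbx3. The null library therefore still listed Tbx3 at a level close to that of the shLuc library, and which exons its reads cover was not analysed here. All 6 stem cell markers (Pou5f1, Sox2, Nanog, Sall4, Zfp42 and Dppa5a) were above 0 in every bulk library, from 31.8 to 1377 FPKM. Genes of small RNAs took 19.4% to 22.3% of the summed FPKM in the Tbx3 +/+, +/N and N/N libraries and 5.31% to 7.15% in the shLuc and shTbx3 libraries.

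The members formed a well-expressed group with a wide range of levels. Their median was 33.1 FPKM in +/+, 28 in +/N, 30.4 in N/N, 40.9 in shLuc and 48.0 in shTbx3, where the median of all listed genes was 9.83, 9.13, 9.60, 9.36 and 10.6. The members thus stood above the typical gene in every library, and higher in the shLuc and shTbx3 libraries than in the other 3. Together they took 0.805% of the summed FPKM in +/+, 0.734% in +/N, 0.734% in N/N, 1.11% in shLuc and 1.13% in shTbx3. Large and small subunit genes lay at like levels, with medians in +/+ of 33.8 FPKM over 49 genes and 31.2 over 26. The plot of levels by library shows the 2 subunits mixed over the whole range.

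**Figure D1:**
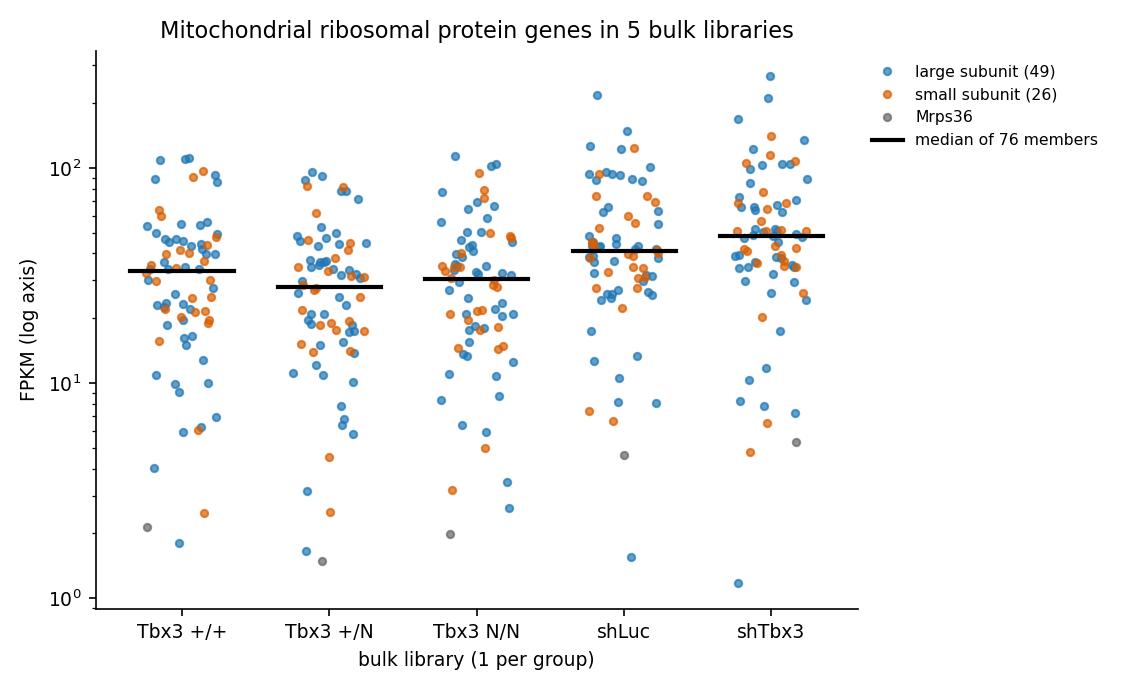
FPKM (log axis) of the 76 members in each bulk library, 1 library per group; points are genes, coloured by subunit, and the bar is the median of the members. The medians run from 28 FPKM in Tbx3 +/N to 48.0 in shTbx3, and the lowest point in Tbx3 +/+ is Mrpl23 at 1.81.

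At the top of the order stood Mrpl52, a large-subunit protein with no bacterial counterpart, at 111 FPKM in +/+, 78 in +/N, 76.8 in N/N, 219 in shLuc and 267 in shTbx3. It was followed by Mrpl12, which forms the stalk that receives translation factors, at 92.1, 72, 66.4, 148 and 210 FPKM in the same order of libraries. In both genes the +/N and N/N libraries were lowest and the shTbx3 library highest. Mrpl2, a core protein next to the peptidyl transferase centre, was at 109, 88.0, 102, 93.8 and 134 FPKM. Mrpl34 was at 86.2, 77.8, 69.3, 126 and 169 FPKM, and Mrpl24, which sits by the exit of the peptide tunnel, at 89.1, 92.0, 113, 95.9 and 84.9. Mrpl24 differed from the other 4 in being highest in N/N and lowest in shTbx3.

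The lowest member was Mrpl23, another protein of the tunnel exit, at 1.81 FPKM in +/+, 1.65 in +/N, 2.64 in N/N, 1.55 in shLuc and 1.17 in shTbx3. Next came Mrps36, whose protein is now known mainly as a part of the 2-oxoglutarate dehydrogenase complex, at 2.15, 1.49, 1.98, 4.65 and 5.35 FPKM. Mrps33 was at 2.48, 2.50, 3.18, 6.66 and 4.81 FPKM. These 3 genes, with Mrpl41 and Mrps25, lay far under the median of the members in all 5 libraries. Of these 5 genes Mrpl23 alone was lower in both shRNA libraries than in the other 3. The ribosome holds its proteins in fixed proportion, mostly 1 copy each, and the levels of their transcripts ran from 1.81 to 111 FPKM in the +/+ library alone.

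Tbx3 sites were placed on the same genome build as the files (mm9), by their distance to the start of each gene's CCDS transcripts. A site lay within 1 kb of 4 of the 76 member starts, or 5.26%, beside 571 of the 11094 placed coding genes of the bulk table (5.15%) and 638 of all 22238 coding genes (2.87%). Within 20 kb, 11 members (14.5%) had a site, beside 1647 of 11094 (14.8%) and 2126 of 22238 (9.56%). The members' shares were close to those of the other expressed genes in both windows.

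All 4 near sites lay over the start itself. They belonged to Mrpl17, a large-subunit protein with a bacterial counterpart (chr7:112959321-112959961, deposited score 54.0), Mrpl34 (chr8:73988449-73988921, 64.6), Mrpl42 (chr10:94964270-94964775, 79.0) and Mrps18b (chr17:36053091-36054138, 126). The scores are the authors', and over all 3078 sites they ran from 50 to 791 with a median of 76.7. The Mrpl17 and Mrpl34 sites lay under that median, the Mrpl42 site just above it and the Mrps18b site higher, at rank 673 from the top. The Mrps18b site also covered the start of Ppp1r10, a regulatory subunit of protein phosphatase 1, which begins 177 bases upstream on the other strand. Of the 8 further sites within 20 kb of a member, 6 were nearer to the start of another coding gene. Those of Mrpl15, Mrpl24, Mrpl4, Mrpl52, Mrps14 and the second of Mrpl42 lay nearest to Lypla1, Rrnad1, Icam1, Slc7a7, Cacybp and Ube2n. Mrps24 and Mrps31 had the other 2, at 4482 bases beyond the Mrps24 start and inside the Mrps31 gene.

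The bases just upstream of the 4 starts under a site, all inside it, are shown with the matches to the searched motifs in capitals, read from mm9 on the strand of the gene; for Mrps18b the run stops before the transcripts of its neighbour. The stretch between the starts of Mrpl46 and Mrps11, which diverge from one another, is shown because these genes had the lowest differences of all members in the N/N library; it holds no match.
Mrpl17 (chr7:112959614-112959813, minus strand, Sp1 letters in capitals): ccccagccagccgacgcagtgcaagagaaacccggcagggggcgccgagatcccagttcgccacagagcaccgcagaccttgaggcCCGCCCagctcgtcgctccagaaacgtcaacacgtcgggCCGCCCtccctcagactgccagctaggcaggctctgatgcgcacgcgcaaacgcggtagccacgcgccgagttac
Mrpl34 (chr8:73988625-73988824, plus strand, ETS letters in capitals): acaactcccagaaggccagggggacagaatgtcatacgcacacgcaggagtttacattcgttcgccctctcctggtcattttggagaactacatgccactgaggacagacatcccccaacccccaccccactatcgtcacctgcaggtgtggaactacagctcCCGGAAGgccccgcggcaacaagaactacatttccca
Mrpl42 (chr10:94964562-94964761, minus strand, Sp1 letters in capitals): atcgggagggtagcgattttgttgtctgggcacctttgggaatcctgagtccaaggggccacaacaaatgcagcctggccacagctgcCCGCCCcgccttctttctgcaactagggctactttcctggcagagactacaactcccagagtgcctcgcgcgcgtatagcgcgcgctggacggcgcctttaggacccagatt
Mrps18b (chr17:36053335-36053378, minus strand, ETS letters in capitals): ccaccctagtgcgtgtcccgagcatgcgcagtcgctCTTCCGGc
Mrpl46 and Mrps11 (chr7:85927953-85928004, plus strand, no match): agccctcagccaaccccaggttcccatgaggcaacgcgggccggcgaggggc
The ETS match of Mrps18b begins at -8 and that of Mrpl34 at -37, counting the base before the start as -1.

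The letters of the T-box core, GGTGTGA, were searched on both strands together with 5 motifs known from promoters of mitochondrial and housekeeping genes. None of the 12 sites within 20 kb of a member held the T-box letters, which were in 416 of all 3078 sites (13.5%). In the 300 bases around each start (250 before it and 50 from it on), 1 of the 76 member promoters held them, that of Mrps7 (1.32%), beside 3.35% of 11094. The ETS letters CCGGAAG were in 28 member promoters (36.8%) beside 18.6%, and the Yy1 letters AAGATGGCG in 9 (11.8%) beside 3.42%. The Nrf1 letters GCGCATGCG were in 5 (6.58%) beside 3.70%. Lower in the members than in all promoters were the Sp1 letters GGGCGG, in 37 (48.7%) beside 66.8%, and the E-box CACGTG, in 5 (6.58%) beside 10.4%. The median GC content of the windows was 57.7% in the members and 61% in all, and a match is a description of letters, not of a bound factor. The 9 promoters with Yy1 letters were those of Mrpl36, Mrpl37, Mrpl42, Mrpl46, Mrps10, Mrps11, Mrps18a, Mrps24 and Mrps27. In the RefSeq promoter windows of GRCm38.p6, which matched 67 members, the ETS letters were in 35.8% beside 20.8% and the Yy1 letters in 11.9% beside 3.8%. The T-box letters were in 0 of 67 beside 4.03%, and the Nrf1 letters in 7 (10.4%) beside 4.5%. Sp1 letters were in 49.3% beside 72.3% and the E-box in 7.46% beside 12.5%.

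**Figure D2:**
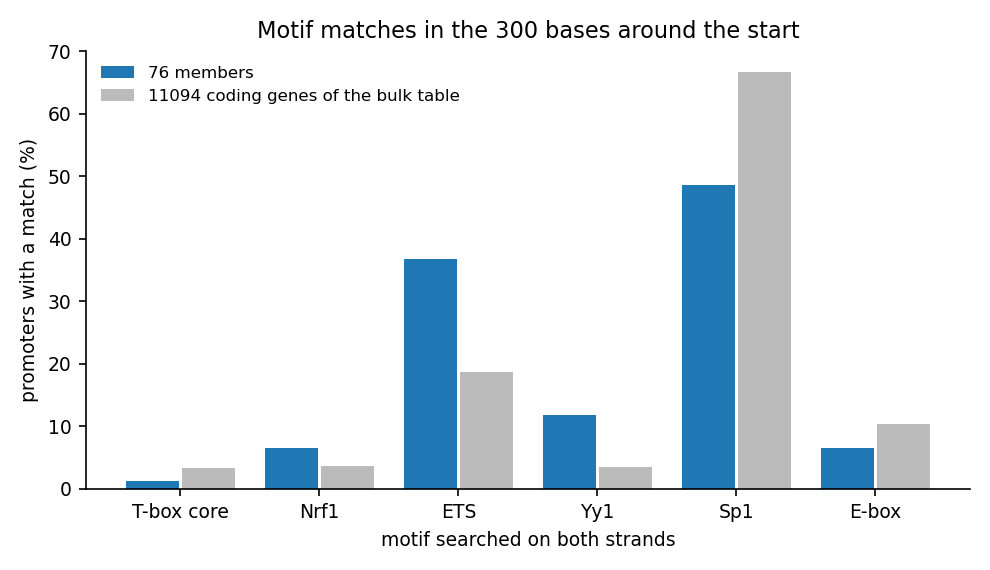
Share of promoters (percent) that hold each motif on either strand in the 300 bases around the start, for the 76 members and for the 11094 placed coding genes of the bulk table. The members stand higher for ETS (36.8% beside 18.6%) and Yy1 letters and lower for Sp1 letters (48.7% beside 66.8%).

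The comparison of Tbx3 N/N with Tbx3 +/+ asks what the loss of both alleles leaves of each gene's level. No member was 1.5-fold higher or 1.5-fold lower, where 625 of 11478 genes (5.45%) were higher by that fold and 743 (6.47%) lower. Likewise 0 members passed 2-fold, where 377 genes (3.28%) did in either direction. The members' log2 differences, computed on FPKM + 1, ran from -0.54 to 0.37 with a median of -0.07, beside -0.03 for all genes. Below 0 stood 48 members and above it 28. Of all 11478 genes, 6193 stood below 0 and 5285 above. Large-subunit members had a median difference of -0.07 and small-subunit members one of -0.18.

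At the low end of this comparison stood a pair of neighbours. Mrps11, a protein of the small subunit's platform, was at 21.4 FPKM in +/+, 15.2 in +/N, 14.4 in N/N, 27.7 in shLuc and 41.1 in shTbx3. Mrpl46, which has no bacterial counterpart and sits in the central protuberance of the large subunit, was at 30.1, 21.0, 20.5, 26.4 and 34.8 FPKM in the same order. Both genes were lower in +/N and N/N than in the other 3 libraries. Their log2 differences of N/N from +/+ were -0.54 and -0.54, and those of +/N from +/+ were -0.46 and -0.50; these 2 comparisons share the +/+ library. The genes lie head to head on chromosome 7, with 52 bases between their starts and no Tbx3 site within 20 kb. An annotated transcript of Mrpl46 reaches into Mrps11, and no source used here says whether the counting used strand, so reads in that overlap cannot be told apart.

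Next at the low end were Mrpl52 (-0.52), Mrpl20 (-0.47) and Mrpl12 (-0.47), of which Mrpl52 and Mrpl12 were also the most abundant members. Mrpl20, which binds ribosomal RNA early in the assembly of the bacterial ribosome, was at 45.1 FPKM in +/+, 36.6 in +/N, 32.2 in N/N, 88.1 in shLuc and 105 in shTbx3. Its level was thus lower in both genotypes with a lost allele, and lowest in the null. At the high end, among members at 5 FPKM or above, were Mrpl42 (0.35), Mrpl24 (0.34) and Mrpl27 (0.31), followed by Mrpl33 and Mrpl35 at 0.23 each. Mrpl42, a protein of the mitochondrial ribosome alone, was at 43.4, 44.9, 55.7, 122 and 104 FPKM in +/+, +/N, N/N, shLuc and shTbx3. Mrpl27, whose bacterial counterpart reaches the peptidyl transferase centre, was at 9.89, 11.2, 12.5, 25.9 and 29.7 FPKM. Mrpl23 had the highest difference of all (0.37), but from 1.81 to 2.64 FPKM.

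Markers of other cells moved in the same comparison. Fibroblast markers (Col1a1, Col1a2, Postn and Thy1) summed to 35.9 FPKM in +/+, to 68.6 in +/N and to 67.7 in N/N, with 3 of the 4 at least 1.5-fold higher in each of +/N and N/N. Extraembryonic endoderm markers (Gata6, Dab2, Lama1 and Sox17) summed to 30.1, 9.61 and 4.95 FPKM, with 4 of 4 at least 1.5-fold lower in each. No marker of these lists was at 0 in these 3 libraries, and their part in the members' differences was not tested. In bulk RNA, fewer cells of a type and less RNA per cell cannot be told apart.

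With 1 allele lost (Tbx3 +/N against Tbx3 +/+), the members' median difference was -0.16 beside -0.10 for all genes, with 14 members above 0 and 62 below. Of all 11459 genes, 4012 were above 0 and 7447 below. Again no member passed 1.5-fold, where 280 of 11459 genes (2.44%) were higher and 563 (4.91%) lower, and none passed 2-fold, where 219 (1.91%) did. The range was -0.50 to 0.16. Much of the lean to lower values was shared with the whole table: centred on those genes that reached 5 FPKM in each of the pair (median -0.12), 30 members lay above 0 and 46 below. Beside Mrpl52, Mrpl46 and Mrps11 the lowest were Mrps18c, at 19.7 FPKM in +/+ and 14.1 in +/N (-0.46), and Mrpl14, at 46.7 and 34.5 (-0.43). The highest were Mrpl27 (0.16), Mrpl35 (0.15), and Mrpl51, Mrps17 and Mrpl36 (0.11 each).

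Between the null and the heterozygous library (Tbx3 N/N against Tbx3 +/N) the members had a median difference of 0.09, beside 0.07 for all genes, and a range of -0.18 to 0.45. Above 0 were 62 members and below it 14, and after the same centring 37 and 39. Before centring, 7735 of all 11362 genes were above 0 and 3627 below. No member passed 1.5-fold, where 111 of 11362 genes (0.977%) were higher and 91 (0.801%) lower, and 0 passed 2-fold, where 71 (0.625%) did. Highest among members at 5 FPKM or more were Mrpl30, at 45.5 FPKM in +/N and 58.4 in N/N (0.36), and Mrpl14 (0.31), which was low in +/N. The lowest were Mrpl20 (-0.18), Mrpl34 (-0.16) and Mrpl50 (-0.16).

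**Figure D3:**
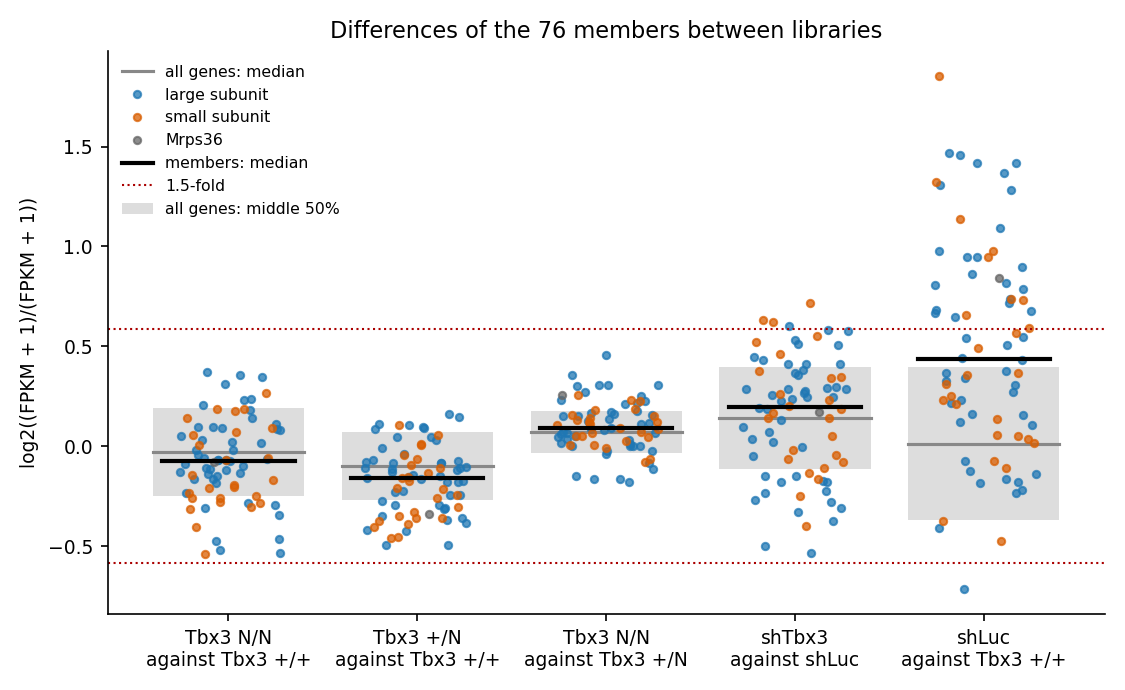
Log2 differences (FPKM + 1) of the 76 members in 5 comparisons of single libraries, coloured by subunit, with the members' median (black), the median and middle 50% of all genes (grey) and 1.5-fold (dotted). No member passes the dotted lines in the 3 comparisons of genotypes; 4 do in shTbx3 against shLuc and in shLuc against Tbx3 +/+ 32 are higher and 1 lower.

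The knockdown comparison, shTbx3 against shLuc, uses neither of the libraries above. The members' median difference was 0.19 beside 0.14 for all genes, with a range of -0.53 to 0.72, 51 members above 0 and 25 below. Of all 11342 genes, 7318 were above 0 and 4024 below. At least 1.5-fold higher were 4 members (5.26%), where 1443 of 11342 genes (12.7%) were, and 0 were lower by that fold, where 423 (3.73%) were. None passed 2-fold, where 431 genes (3.8%) did. The members' shares were thus under those of all genes.

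The 4 were Mrps34, Mrps12, Mrps21 and Mrpl36. Mrps34, a small-subunit protein with no bacterial counterpart, was at 34.1 FPKM in shLuc and 56.8 in shTbx3, with 47.7, 44.6 and 48.0 in +/+, +/N and N/N (difference of shTbx3 from shLuc 0.72). Mrps12, which lies at the decoding centre, was at 74 and 115 FPKM in shLuc and shTbx3 (0.63), and at 96.3, 82.7 and 79.1 in the other 3. In both genes the shLuc library was the lowest of the 5. Mrps21 was at 69.5 and 107 FPKM (0.62) and Mrpl36 at 43.1 and 66 (0.60).

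On the other side, Mrpl1, a protein of the stalk beside the exit site for transfer RNA, was at 17.5 FPKM in shLuc and 11.7 in shTbx3 (-0.53), and at 5.92, 6.39 and 6.39 in +/+, +/N and N/N. Mrpl33 was at 88.3 and 62.3 FPKM in shLuc and shTbx3 (-0.50), Mrps33 at 6.66 and 4.81 (-0.40), Mrpl13 at 92.2 and 70.8 (-0.37) and Mrpl35 at 10.6 and 8.23 (-0.33). In all 5 genes the shLuc library was the highest of the 5 libraries.

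The members' differences in this pair followed the base composition of their transcripts. Across the 76 members the difference of shTbx3 from shLuc had a Spearman rho of 0.62 with the GC content of the longest coding transcript, and across 10967 genes of the table rho was 0.55; the points share both libraries, and genes are not independent replicates. Of the 25 members of lowest GC content (39.6% to 48.2%) 7 were higher in shTbx3, with a median difference of -0.15. Of the 26 in the middle 20 were higher (median 0.21), and of the 25 of highest GC content (53.3% to 60.4%) 24 were (median 0.35). Mrps34 has a GC content of 59.9% and Mrpl1 one of 41.6%.

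When each difference was set against the median of all genes in the same of 20 bins of GC content, an analysis chosen after seeing the data, the members' median became -0.017, with 33 above 0 and 43 below. The count at least 1.5-fold higher then went from 4 to 0, and Mrps34 stood at 0.29, Mrps12 at 0.30, Mrps21 at 0.39 and Mrpl36 at 0.45. The centring on genes at 5 FPKM, whose median in this pair was 0.16, gave 0 higher as well and 2 lower, with 43 members above 0 and 33 below. After neither correction was the count made over all genes. For N/N against +/+ the rho with GC content was -0.29 across the members and -0.09 across 10952 genes, and in the GC bins Mrps11 stood at -0.51, Mrpl46 at -0.49 and Mrpl52 at -0.46. The low values of those 3 were thus of nearly the same size after the correction.

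**Figure D4:**
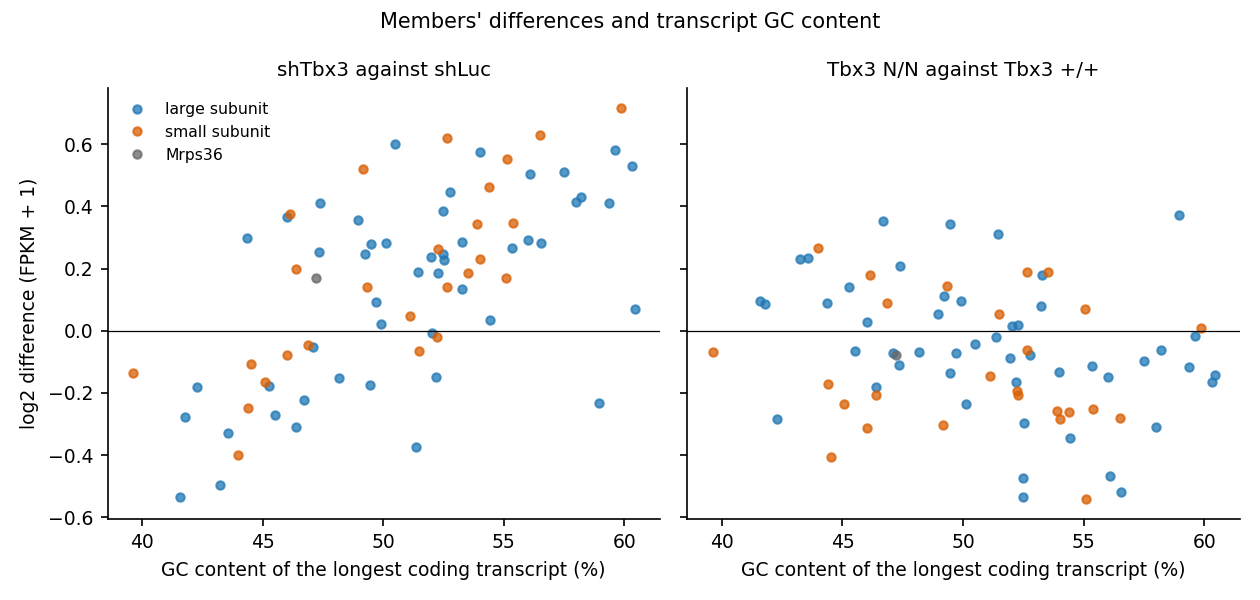
Log2 difference (FPKM + 1) of each of the 76 members against the GC content (percent) of its longest coding transcript, in shTbx3 against shLuc (left) and Tbx3 N/N against Tbx3 +/+ (right). Points climb with GC content on the left (rho 0.62), from a median of -0.15 in the 25 members of lowest GC content to 0.35 in the 25 of highest, and lean the other way on the right (rho -0.29).

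Markers of B cells and antigen-presenting cells (Cd74, H2-Ab1, Cd79b and Cd52) summed to 75.6 FPKM in shLuc and 6.08 in shTbx3, with 4 of 4 at least 2-fold lower, while in the other 3 bulk libraries they summed to between 7.26 and 8.75. The lowest of them was at 8.18 FPKM in shLuc. Their part in the members' differences was not tested.

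The differences for the loss of both alleles and for the knockdown were set side by side for the members. Of 76, 16 were higher in both, 13 lower in both, 35 lower in N/N but higher with the hairpin, and 12 the other way round; rho across the members was -0.29, and -0.08 across 11182 genes. Of those 11182 genes, 3139 were higher in both, 1933 lower in both, 4087 lower in N/N but higher with the hairpin, and 2023 the other way round. The pair of differences thus lay on the same side of 0 in 38.2% of the members and 45.4% of all genes. These comparisons share no library. Across the members their rho with GC content was -0.29 for N/N against +/+ and 0.62 for shTbx3 against shLuc. The values set side by side here were not corrected for GC content, and its part in them was not tested. Mrps11 and Mrpl46, lowest in N/N, were at 0.55 and 0.38 in shTbx3 against shLuc, and Mrpl42, among the highest in N/N, was at -0.22.

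For the members with a Tbx3 site over the start, each comparison gave values on both sides of 0. Mrpl17 was at 15.1 FPKM in +/+, 13.7 in +/N, 15.4 in N/N, 13.4 in shLuc and 17.5 in shTbx3, with differences of 0.03 (N/N against +/+) and 0.37 (shTbx3 against shLuc). Mrpl34 differed by -0.31 and 0.41, Mrpl42 by 0.35 and -0.22. Mrps18b, a relative of the bacterial small-subunit protein S18, was at 19, 17.5, 18.1, 38.3 and 42.4 FPKM and differed by -0.06 and 0.14. With centring within bins of GC content the shTbx3 differences of Mrpl34 and Mrps18b, of 58.0% and 52.6% GC content, were -0.03 and -0.09. Those of Mrpl17 and Mrpl42, of 46.0% and 46.7%, are not given here. In N/N against +/+ the same centring gave 0.05 for Mrpl17, -0.24 for Mrpl34, 0.39 for Mrpl42 and -0.02 for Mrps18b. The neighbour of Mrps18b, Ppp1r10, whose start lies under the same site, was at 28.7, 19.4, 18.6, 7.51 and 10.4 FPKM, with differences of -0.60 and 0.42. The 11 members with a site within 20 kb had a median of -0.07 in N/N against +/+, beside -0.08 for the 65 without, and of 0.14 beside 0.23 in shTbx3 against shLuc.

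The members stood furthest from the rest of the table between the 2 control libraries. This comparison, shLuc against Tbx3 +/+, was added after seeing the data; it crosses the genotype set and the hairpin set and shares a library with each of 3 comparisons above. The members' median difference was 0.44 beside 0.01 for all genes, with 62 of 76 above 0, where 5877 of 11568 genes were. At least 1.5-fold higher were 32 of the 76 members, where 1888 of 11568 genes (16.3%) were, and 1 member, Mrpl28, was lower by that fold, where 1724 genes (14.9%) were. Mrps18c was at 19.7 FPKM in +/+ and 73.8 in shLuc (1.85), Mrpl42 at 43.4 and 122 (1.47), Mrpl21 at 12.9 and 37.1 (1.46), and Mrpl13 and Mrpl1 each stood at 1.42. Mrpl28 was at 109 FPKM in +/+ and 65.9 in shLuc (-0.71). Markers of other cell types differed between the same 2 libraries. Fibroblast markers summed to 35.9 FPKM in +/+ and 6.06 in shLuc, with 4 of 4 at least 1.5-fold lower and Postn listed at 0 in shLuc. Extraembryonic endoderm markers summed to 30.1 and 11.4 FPKM, with 4 of 4 lower, and those of B cells and antigen-presenting cells to 8.75 and 75.6, with 4 of 4 higher. Their part in the members' differences was not tested.

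That shift was not particular to these genes: 95 cytosolic ribosomal protein genes had a median of 0.64 and 87 respiratory chain subunit genes one of 0.16. The members' rho with GC content was -0.42 (all genes, -0.51). In the GC bins their median was 0.41, with 29 at least 1.5-fold higher. The same count over all genes in the bins was not made. The 26 or 100 bp read lengths of the bulk libraries are assigned to no library in these sources, so genotype or hairpin, read length and library set cannot be told apart.

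Companions of the ribosome showed differences of the same small size. Of 7 subunit genes outside the naming rule, 6 were lower and 1 higher in N/N against +/+, with a median of -0.13 and none at 1.5-fold. Of all 11478 genes, 6193 were lower in that comparison. Gadd45gip1, a large-subunit protein, was at 48.9 FPKM in +/+, at 33 in +/N and at 36.6 in N/N (-0.41), and Aurkaip1, a small-subunit protein, at 59.9, 45.7 and 48.0 (-0.32). Both were lower in each genotype with a lost allele. Of 10 translation factors 5 were higher and 5 lower, led by the elongation factor Tsfm at 45.8 FPKM in +/+ and 35.4 in N/N (-0.36). Of 20 measured assembly and ribosomal RNA factors 17 were lower (median -0.15), with Rbfa, which acts on the small subunit, at 43.1 and 29.7 FPKM (-0.52) and Ddx28, a helicase of large-subunit assembly, at 11.5 and 8.33 (-0.43). In shTbx3 against shLuc 13 of these 20 were higher and 7 lower, where 7318 of 11342 genes were higher. Of the 7 subunit genes 3 were higher and 4 lower there, and of the 10 translation factors 8 and 2. Rbfa (0.41), Ddx28 (0.51), Tsfm (0.29), Aurkaip1 (0.34) and Gadd45gip1 (0.18) were all higher there.

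In +/N against +/+ 1 companion passed 1.5-fold, the assembly factor Mpv17l2, at 35 FPKM in +/+ and 22.7 in +/N (-0.60). In shTbx3 against shLuc 2 did, both higher: Rnmtl1, which methylates the large ribosomal RNA, at 4.81 FPKM in shLuc and 10.2 in shTbx3 (0.95), and Polrmt, the mitochondrial RNA polymerase, at 12.9 and 20.1 (0.60). None of these companions passed 1.5-fold in N/N against +/+. In that comparison the cytosolic ribosomal protein genes had a median of 0.10 and the respiratory chain subunit genes one of -0.05, so the members' -0.07 lay beside the latter; names of cytosolic ribosomal protein genes include near-identical copies whose reads may be split.

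Member starts often faced another gene. For 25 of 76 (32.9%) a coding gene on the opposite strand began within 1 kb, where 1686 of 11094 placed genes (15.2%) had one, and for 23 it began within 500 bases. The partners included Tcp1 (a chaperonin subunit, 37 bases from Mrpl18), Psma2 (a proteasome subunit, facing Mrpl32), Fau (a cytosolic ribosomal protein precursor, facing Mrpl49), Sars2 (the mitochondrial seryl-tRNA synthetase, facing Mrps12) and Ndufb5 (a respiratory chain subunit, which begins inside Mrpl47). In 5 of the 25, Mrpl47 among them, the partner began inside the member, so the genes overlapped. Of 22 pairs with both genes in the bulk table, 10 lay on the same side of 0 in N/N against +/+ and 15 in shTbx3 against shLuc. The same count was not made for other pairs of genes. Of all genes, 6193 of 11478 were lower in N/N against +/+ and 7318 of 11342 higher in shTbx3 against shLuc. Mrps12 and Sars2 differed by -0.28 and -0.14 in the first and by 0.63 and 0.55 in the second. Mrpl18 and Tcp1 went apart in both, with -0.24 and 0.20, then 0.28 and -0.08.

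The 45 single cells all belong to 1 group and were compared with no other group. Their FPKM were scaled separately from the bulk libraries, and the number of reads per cell is not known from the files. The typical (median) member reached 1 FPKM in 46.7% of cells, beside 93.3% for the cytosolic ribosomal protein genes, 82.2% for respiratory chain subunit genes and 8.89% for all bulk genes found in the single-cell table. These sets also differed in level. Their pool medians were 80.2, 147 and 13.2 FPKM, beside 66.7 for large-subunit and 68.1 for small-subunit members. Of 3420 pairs of a member and a cell, 35.6% were listed at 0, and 24.3% were at 100 FPKM or more. In the pool all 76 members were at 1 FPKM or more. A listed 0 may be a failed measurement, which was not tested. Among other genes looked at, Gapdh was at 0 in 28 cells, Pou5f1 in 22 and Rpl3 in 12. Rplp0 and Actb were at 0 in 0 cells.

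The members present in most cells were Mrpl18, a relative of the protein that binds 5S ribosomal RNA in other ribosomes, in 44 of 45 cells (97.8%, with a 95% interval, exact by Clopper and Pearson, of 88.2% to 99.9%, which covers counting of cells only), Mrps14 and Mrpl15 in 43 each, Mrpl42 in 42 and Mrpl21 in 40. Mrpl18 ran from 0 through a median of 646 to 3916 FPKM over cells and was at 176 in the pool. Mrps14 ran from 0 through 178 to 609 FPKM and was at 41.2 in the pool, where it ranked only 62nd of the 76 members. Mrpl15 alone of the 76 was at 0 in no cell, from 0.627 through 138 to 693 FPKM.

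At the other end were Mrps6 in 4 cells (8.89%, interval 2.48% to 21.2%), Mrpl23 in 5, Mrps30 and Mrpl9 in 6 each, and Mrpl3 in 7. Mrps30 stood out, since its pool level of 66.7 FPKM was that of the median large-subunit member, but no cell was above 26.4 and the mean over cells was 1.39. Mrpl9 had the opposite form, with few cells but up to 1455 FPKM in one of them and a mean over cells of 62.1 beside 46.9 in the pool. Across members the number of cells had a rho of 0.47 with the pool level, so the pool level and the detection in cells only partly followed one another, as the plot of detection shows. The 46 members assigned a bacterial counterpart were in a median 53.3% of cells and the 29 assigned none in 37.8%, with pool medians of 72.3 and 64.8 FPKM.

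**Figure D5:**
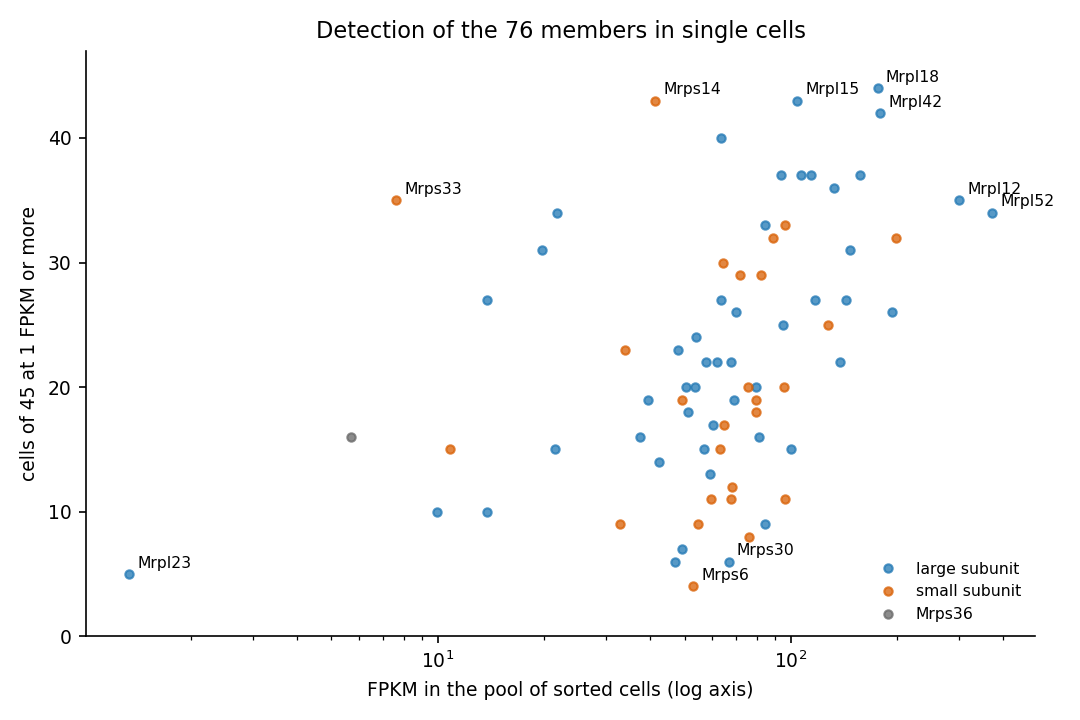
Number of the 45 cells with each member at 1 FPKM or more against its FPKM in the pool of sorted cells (log axis), coloured by subunit. Mrps14 and Mrps33 are found in 43 and 35 cells at pool levels of 41.2 and 7.63, while Mrps6 and Mrps30 are found in 4 and 6 at 52.9 and 66.7 (rho 0.47).

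Per cell, 23 to 56 members were at 1 FPKM or more, with a median of 38. That number followed the number of genes listed above 0 (rho 0.73 over 45 cells, which come from 1 group and share the scaling). Genes above 0 ran from 4279 to 5241 in the first 23 cells as listed and from 2139 to 3782 in the other 22. The labels do not say what sets these 2 blocks of cells apart. Within them rho was 0.56 and 0.84. Medians were 41 and 31.5 members. The members' share of the summed FPKM did not follow the number of genes above 0 (rho -0.06). This share ran from 0.836% to 2.75% with a median of 1.53%, 1.59% and 1.48% in the 23 and 22 cells, and was 1.20% in the pool. The summed levels of large-subunit and small-subunit members had a rho of -0.03 across cells. Mrps11 and Mrpl46, the neighbours that were lowest together in the null library, were both at 1 FPKM or more in 9 cells, Mrps11 alone in 10, Mrpl46 alone in 13 and neither in 13, with a rho of 0.07 between their levels.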

How the data were processed

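Bulk and single-cell values are FPKM as deposited; the authors made them with TopHat, Cufflinks, Cuffdiff and Cuffnorm on mm9, per the submitters' processing notes, whose versions no source used here gives. The 3078 Tbx3 sites carry the authors' deposited score; Bowtie 1.0 and HOMER are named in those notes. FPKM scaling ties each library to its own total, and total RNA libraries hold small RNAs that take part of it. Log2((a + 1)/(b + 1)) was computed per gene over the whole table, with genes that reached 1 FPKM in at least 1 of the pair, and calls at 1.5-fold and 2-fold. No test was run, as each group is 1 library. Starts came from CCDS transcripts of gencode vM1 on mm9; 75 of 76 members have one. Motifs, GC content and length came from the same build. Promoter windows of RefSeq were an alternative. The members and gene lists were chosen with earlier results of these data known. Named were the 5 highest and 5 lowest members by mean level, the 5 largest differences each way per comparison at 5 FPKM or more, those with a site within 20 kb, the 5 in most and the 5 in fewest cells, and up to 4 companions per list; some that the rule gives are not named. Chosen after their values were seen were Mrpl23 in N/N against +/+, the facing partners, Ppp1r10, the site's other neighbours and Mrps7. Calculations were tested on simulated data with planted differences and site distances. Python 3.11.15, pandas 2.3.3, numpy 2.4.6, scipy 1.17.1 and pysam 0.24.0 were used.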

Additional observations from a re-analysis of the deposited data

How the results depend on the processing

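Pseudocounts of 0.1 and 5 FPKM, filters and centring left the members' median in N/N against +/+ within 0.1, and no alternative gave a member at 1.5-fold there. Centring on genes that reached 5 FPKM in each of the pair took the members' median to -0.041 in +/N against +/+, to -0.0029 in N/N against +/N and to 0.036 in shTbx3 against shLuc, where 0 members were then 1.5-fold higher and 2 lower. Centring within 20 GC bins, added after seeing the data, took the medians to -0.036 (+/N against +/+) and -0.017 (shTbx3 against shLuc, with 0 higher and 1 lower), and left 0 lower in shLuc against +/+. A pseudocount of 0.1 gave 1 member 1.5-fold higher in N/N against +/N. For centring and this pseudocount, the counts over all genes were not made. At 2-fold, 0 members were higher in shTbx3 against shLuc, where 319 of 11342 genes were. In shLuc against +/+ 11 members were higher and 0 lower by 2-fold, where 657 and 680 of 11568 genes were. Sites at or above the median score left 2 members within 1 kb and 6 within 20 kb; windows of 5 and 50 kb gave 5 and 20. Outermost annotated starts, also added, gave 5 and 12, with Mrpl48 gained. Its outermost start lay 25195 bases from its CCDS start and 303 bases from a site of score 358. That site covered the start of Rab6. At 0.1 FPKM the median member was in 66.7% of cells. The other 93 of 112 settings, and 286 of 388 for single genes, stayed within 0.1 or 1.5 times (cell values within their interval or 1 SD). With centring or GC bins, 2 of the medians above and 22 values of single genes, at most 0.53 in size before, turned sign; Mrpl4 in shTbx3 against shLuc went from 0.53 to -0.0072. No paired analysis was possible because each bulk group is 1 library.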
